A study of Mus musculus with 39 samples.

Results

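The glutathione S-transferases (Gst), UDP-glucuronosyltransferases (Ugt) and cytosolic sulfotransferases (Sult) of mouse liver were followed through a social stress experiment. Every gene whose RefSeq symbol begins with 1 of these stems and goes on with a letter or digit was taken, which gave 47 genes (21 Gst, 14 Ugt and 12 Sult) of 17016 named RefSeq genes on the array. Each gene was read from its brightest probe by mean Cy-5 signal.

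Male C57BL/6J mice were placed in a small cage inside the cage of a trained SJL aggressor for 6 hrs a day (AggE), or followed the same schedule with no aggressor nearby (Ctrl). Per the labels AggE mice had neither food nor liquid in the sessions, and the study's methods state food deprivation for Ctrl mice. Livers were taken 24 hrs after a 5-day regimen (4 Ctrl and 5 AggE mice), 24 hrs after a 10-day regimen (4 Ctrl, 5 AggE), after 1.5 wks of rest from the 5-day regimen (4 Ctrl, 5 AggE) and after 4 wks of rest from the 10-day regimen (6 Ctrl, 6 AggE). The mice were 5–6 weeks old when bought, so the rested mice were also older. Shortly before collection, the study's methods describe a partition test in an aggressor's home cage, with physical contact blocked but sensory cues let through. They do not say outright whether Ctrl mice took it. Rest here thus means rest from the regimen, and the part of the partition test in the values was not tested. Each of 39 arrays compared the Cy-5 RNA of 1 liver with a common Cy-3 reference pooled from mouse cell lines, and no dyes were swapped. For AggE livers taken 24 hrs after 5 days, a description field names 1 day of stress where the source field names 5, and the source field was used. At 1.5 wks, the titles of Ctrl mouse 4 and of each of the 5 AggE animals carry a 10, as those of the 10-day regimen do, while their source and description fields name 5 days, so the regimen behind the values at 1.5 wks is less certain than at the other times.

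Conjugation makes foreign and endogenous molecules more soluble so that bile and urine can carry them off. Gst enzymes attach glutathione to reactive electrophiles, Ugt enzymes of the endoplasmic reticulum attach glucuronic acid or another sugar to bilirubin, steroids and drugs, and Sult enzymes attach sulfate from the donor PAPS to phenols, steroids and bile acids. The genes sit in clusters of close copies, and the Ugt1a enzymes share their last exons, so a probe can read more than 1 of them. In liver their transcription is known to depend on NRF2, the aryl hydrocarbon receptor, CAR, PXR and HNF factors, and several differ between the sexes through growth hormone and STAT5.

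Promoters of 5 members are shown, 1 with each of the marked motifs and 3 whose levels are described at length. RefSeq windows (GRCm38.p6, 250 bases before to 50 bases after a start) were found for 41 of the 47 genes, 53 windows in all. Capitals mark a match to the core of the antioxidant response element, TGACNNNGC, or of the xenobiotic response element, TNGCGTG, on either strand. Gsta3 and Sult1d1 each hold 1 match, and Ugt3a1, Ugt2b1 and Gstp1 hold none. Other forms of these elements were not searched, so no match does not mean that an element is absent.
Gsta3, chr1:21240335-21240634, plus strand: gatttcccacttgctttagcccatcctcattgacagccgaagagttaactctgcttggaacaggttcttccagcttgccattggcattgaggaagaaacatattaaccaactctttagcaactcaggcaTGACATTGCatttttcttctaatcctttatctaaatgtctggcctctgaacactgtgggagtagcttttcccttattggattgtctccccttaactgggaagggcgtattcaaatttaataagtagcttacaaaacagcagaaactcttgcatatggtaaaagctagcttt
Sult1d1, chr5:87568957-87569256, minus strand: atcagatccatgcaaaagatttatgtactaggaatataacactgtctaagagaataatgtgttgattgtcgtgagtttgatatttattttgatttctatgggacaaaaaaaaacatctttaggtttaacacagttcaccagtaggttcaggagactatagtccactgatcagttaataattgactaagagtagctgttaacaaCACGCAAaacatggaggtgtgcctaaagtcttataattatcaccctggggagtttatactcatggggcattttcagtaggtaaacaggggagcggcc
Ugt3a1, chr15:9279579-9279878, plus strand: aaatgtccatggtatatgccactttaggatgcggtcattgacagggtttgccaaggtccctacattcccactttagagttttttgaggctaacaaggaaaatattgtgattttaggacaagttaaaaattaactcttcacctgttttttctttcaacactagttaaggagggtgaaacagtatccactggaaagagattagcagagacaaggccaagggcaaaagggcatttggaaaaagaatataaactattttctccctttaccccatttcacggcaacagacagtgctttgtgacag
Ugt2b1, chr5:86926454-86926753, minus strand: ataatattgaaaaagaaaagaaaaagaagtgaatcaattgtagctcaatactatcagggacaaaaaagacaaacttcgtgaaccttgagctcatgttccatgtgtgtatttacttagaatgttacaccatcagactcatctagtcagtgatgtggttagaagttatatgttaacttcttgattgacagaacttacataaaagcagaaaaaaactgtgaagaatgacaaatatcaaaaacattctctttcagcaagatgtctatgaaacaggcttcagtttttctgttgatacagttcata
Gstp1, chr19:4037863-4038162, minus strand: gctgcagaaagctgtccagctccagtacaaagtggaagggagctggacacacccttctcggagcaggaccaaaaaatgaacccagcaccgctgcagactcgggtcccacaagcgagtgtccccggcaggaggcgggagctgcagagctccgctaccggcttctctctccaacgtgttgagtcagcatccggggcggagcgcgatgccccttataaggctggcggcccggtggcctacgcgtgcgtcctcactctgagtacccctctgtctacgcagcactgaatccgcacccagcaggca
The antioxidant core lay in the windows of 3 members (Gsta3, Gstm5 and Gstm7) and in 12.4% of all 32851 windows. The xenobiotic core lay in those of 3 members (Gsta2, Gstcd and Sult1d1) and in 5.07% of all windows. A STAT5 motif, TTCNNNGAA, lay in those of 3 members (Gsta1, Gstm6 and Sult3a1) and in 8.30% of all. The direct repeat of nuclear receptors was in no member window, and in 0.0396% of all. These matches describe letters in short windows.

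The livers differed widely in how well the transcripts could be read. Between 15.2% and 70.4% of an array's probes were well above background in Cy-5. The share ran from 25.3% to 31% in Ctrl and from 15.7% to 28.2% in AggE livers 24 hrs after 5 days. At 4 wks it ran from 46.1% to 70.4% in Ctrl and from 42% to 57% in AggE livers. Of the 47 members, 22 were well above background on all 39 arrays and 39 on all arrays of at least 1 group. The other 8 (Gstcd, Gstt4, Sult1e1, Sult2a2, Sult2b1, Sult3a1, Ugt1a9 and Ugt8a) were dim, and Gstt4 and Sult3a1 were well above background on no array. The cell-line reference lacked much of this liver programme. In Cy-3, 9 of 14 Ugt and 5 of 12 Sult genes, but 2 of 21 Gst genes, were well above background on fewer than 20 arrays. All 6 hepatocyte markers were well above background on every array, among them Alb, at log2 ratios of 4.80 to 7.79. The 39 arrays lay on 11 slides, and Ctrl and AggE mice at 24 hrs shared no slide, so slide and exposure cannot be told apart there.

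At 24 hrs post-5-day, aggressor exposure left most conjugation enzymes within the spread between mice, and 1 of 47 was called. The estrogen sulfotransferase Sult1e1, which inactivates estrogens, rose. In the plot of changes by family its star stands among the Sult genes. Its log2 ratios were 0.21, 0.11, 0.05 and 0.16 in the Ctrl mice and 0.67, 0.58, 0.20, 0.98 and 1.12 in the AggE mice. The groups overlapped in 1 AggE mouse. The transcript was dim, well above background in 0 of 4 Ctrl and 2 of 5 AggE mice. The fitted log2 difference of the ratios to the reference was 0.58 ± 0.14 (SE; limma, adjusted p = 0.0184). On the Cy-5 part of the normalized signals, untested and open to dye bias, AggE was 1.68-fold higher. Ctrl readings below the lowest signal well above background on their array were raised to it. That moved the Ctrl mean only from 6.716 to 6.72 on the log2 scale, so 1.68 is no firm lower bound. The call was lost without Ctrl mouse 3 (adjusted p = 0.0547), Ctrl mouse 4 (0.0502) or AggE mouse 5 (0.0539), without normalization between arrays (0.517) and with slide as a random block (0.368). The 1 call of 47 members, 2.13%, stands beside 3.13% of all 17016 genes called in this comparison, and 1.66% called higher.

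**Figure D1:**
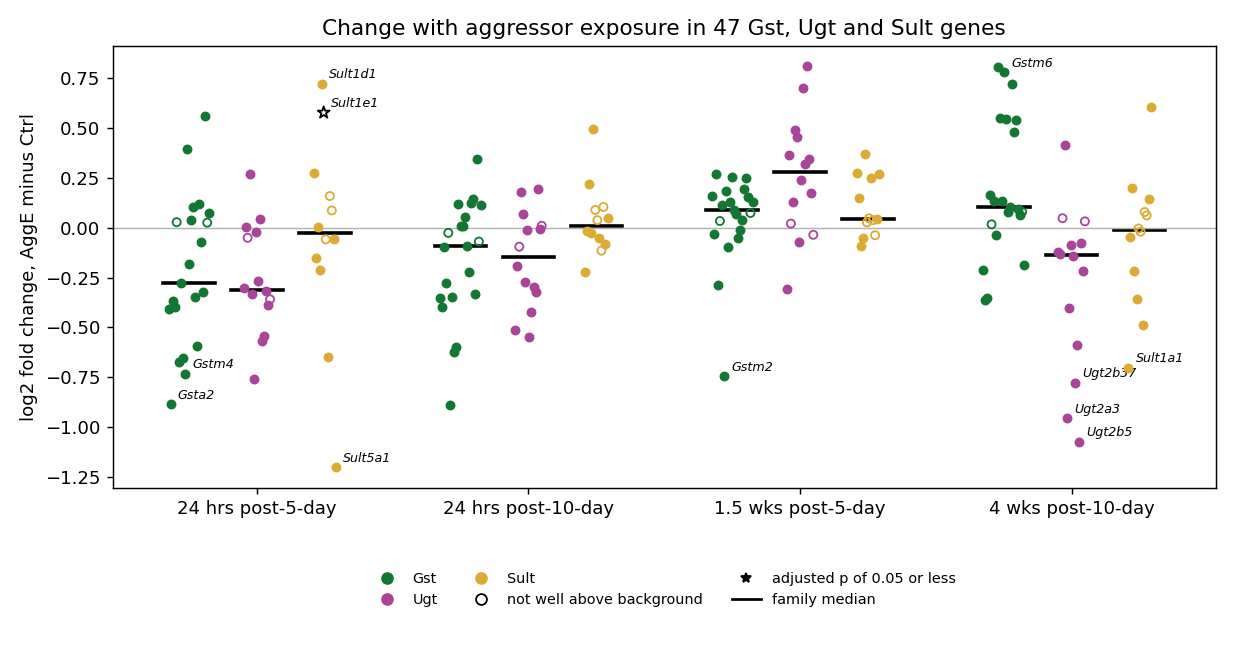
Change with aggressor exposure in each of the 47 genes. The vertical axis gives the log2 fold change, AggE minus Ctrl, and each point is 1 gene at its brightest probe, grouped by family (colour) within the 4 comparisons; open points were not well above background on all arrays of any group, the star was called, and bars mark family medians. Only Sult1e1 at 24 hrs post-5-day passed the adjusted p, and the Ugt median moved from -0.31 there to 0.28 at 1.5 wks.

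Among the brighter members at 24 hrs post-5-day none was called, and several sat lower in AggE without passing the test. Sult5a1, an orphan sulfotransferase, read 3.14, 2.66, 2.92 and 3.01 in Ctrl and 1.74, 1.05, 1.66, 1.43 and 2.78 in AggE. Its log2 difference of -1.20 ± 0.49 (SE) was the lowest of any member in this comparison (adjusted p = 0.181). Gstm4, a mu-class transferase, read 1.48, 1.14, 1.78 and 1.48 in Ctrl and 0.62, 0.69, 0.29, 0.45 and 1.65 in AggE, and 4 of 5 AggE mice lay below every Ctrl mouse (log2 difference -0.73 ± 0.26, adjusted p = 0.112). The alpha-class Gsta2, induced through NRF2, differed by -0.88 ± 0.37 (adjusted p = 0.199). From the processed signals of the scanner software all 3 turned the other way, with 1.43 for Sult5a1, 0.64 for Gstm4 and 0.57 for Gsta2.

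Groups that did not overlap were found for 4 members (Gstm1, Gstp1, Gsto2 and Sult2a8), where 7.33% of all genes had them. Gstp1, the pi-class transferase that is abundant in male mouse liver, read 2.76, 2.89, 2.89 and 2.61 in Ctrl and 2.24, 2.02, 2.47, 2.18 and 2.10 in AggE. Its difference was -0.59 ± 0.48, with an SE drawn from the spread in all 8 groups (adjusted p = 0.594). Gstm1, the abundant mu-class enzyme, read 3.21, 3.68, 3.20 and 3.78 against 2.62, 2.84, 3.07, 2.72 and 2.72 (-0.67 ± 0.47, adjusted p = 0.51). Sult2a8, a hydroxysteroid and bile acid sulfotransferase, differed by -0.65 ± 0.32 (adjusted p = 0.289). Gsto2, an omega-class enzyme, read -0.35 to -0.40 in every Ctrl mouse and -0.49 to -0.99 in AggE, but was well above background in no mouse of either group (adjusted p = 0.0532).

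On the higher side stood Sult1d1, which sulfates catecholamines and other monoamines, with 1.60, 1.55, 1.99 and 2.19 in Ctrl and 2.73, 2.37, 1.41, 2.85 and 3.41 in AggE. Its log2 difference was 0.72 ± 0.33 (adjusted p = 0.25), and it was -0.03 without normalization between arrays and -0.70 in the series table. The theta-class Gstt3 differed by 0.56 and the mu-class Gstm5 by 0.40 (adjusted p = 0.323 and 0.0803). Counted by unadjusted p, 10 of 47 members passed (21.3%, with 16.7% of all genes), 4 of them higher (8.05% of all genes) and 6 lower (8.6% of all genes).

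Of the Ugt genes 3 of 14 were higher in AggE, with a median log2 difference of -0.31, and of the Gst genes 8 of 21, with a median of -0.28. The Sult genes split 6 of 12, median -0.03, beside 8577 of 17016 and a median of 0.00 for all genes. The sign of the median was kept under 24 of 24 alternatives for Ugt, 23 for Gst and 19 for Sult. In the Ugt family the lowest differences were those of Ugt2b1 (-0.76), Ugt2b38 (-0.57) and Ugt2b5 (-0.54), enzymes of steroid and drug glucuronidation (adjusted p = 0.385, 0.46 and 0.661). Ugt1a6b, read by a probe that may share signal with its Ugt1a neighbours, differed by 0.00 ± 0.26, with a 95% interval of -0.53 to 0.53.

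In the same livers the inflammatory programme had moved. Of 14 acute phase genes 9 were called higher, with Saa1 up by 3.76 ± 0.44 on the log2 scale (adjusted p = 2.49e-06), and the acute phase level of a mouse ran from 1.93 to 2.42 in Ctrl and from 3.81 to 5.02 in AggE. Of 11 targets of CAR, PXR and PPARα outside the families, 4 PPARα targets were called lower (Acot1, Cyp4a10, Cyp4a14 and Cyp4a31), among them Cyp4a14 at -3.17 ± 0.77 (adjusted p = 0.0191), and the CAR target Cyp2b9 was called higher (1.64 ± 0.44, adjusted p = 0.031). Nnmt, which methylates nicotinamide, was the only 1 of 16 other conjugating transferases called (0.64 ± 0.16, adjusted p = 0.0228). None of 16 genes of cofactor supply, 18 regulators, 7 exporters and 10 NRF2 and AhR targets was called. Of 10 male-biased liver genes Cyp4a12a was called lower (-1.43 ± 0.41, adjusted p = 0.0457), and their mean level ran from 4.77 to 4.91 in Ctrl and from 4.11 to 4.25 in AggE. Of 13 female-biased genes Cyp2b9 and Cyp2b13 (1.08 ± 0.28, adjusted p = 0.0248) were called higher. The part of the acute phase and sex-biased genes in the members' values was not tested. In bulk liver, fewer cells of a type and less RNA per cell cannot be told apart.

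At 24 hrs post-10-day no member was called, where 0.094% of all genes were, and 1 of 47 passed an unadjusted p (2.13%, with 2.88% of all genes). That gene was again Gstm4, with 1.95, 0.86, 1.59 and 1.62 in Ctrl and 0.41, 0.54, 0.71, 1.19 and 1.70 in AggE, a log2 difference of -0.60 (adjusted p = 1). Gstm1 differed by -0.89, the lowest of the members here, and its groups did not overlap: 3.08, 3.39, 3.78 and 3.44 in Ctrl and 2.64, 2.35, 2.11, 2.56 and 2.99 in AggE (adjusted p = 1). Non-overlapping groups were seen in 2 of 47 members and in 1.86% of all genes. Sult1d1 stood at 0.49 and Ugt2b35 at -0.55. The family medians were -0.14 for Ugt, -0.09 for Gst and 0.01 for Sult, the last keeping its sign under 12 of 24 alternatives. Sult1e1, called after 5 days, differed by 0.09 ± 0.14 after 10. The acute phase genes had risen here as well, 7 of 14 being called, and of the CAR, PXR and PPARα targets Cyp2b10 was called higher (adjusted p = 0.0126).

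After 1.5 wks of rest no member was called and no gene at all, and 1 member passed an unadjusted p (2.13%, with 2.45% of all genes). Gstm2, a mu-class enzyme, read 2.00, 1.36, 2.00 and 1.12 in Ctrl and 1.07, 0.57, 1.12, 0.79 and 0.82 in AggE (log2 difference -0.75, adjusted p = 1). Most other members leaned higher in AggE, 35 of 47, beside 8306 of 17016 genes. The medians were 0.28 for Ugt (11 of 14 higher), 0.09 for Gst (15 of 21) and 0.05 for Sult (9 of 12), and their sign was kept under 22, 24 and 23 of 25 alternatives. Ugt2b5 had the highest value, 0.81, and its mice overlapped widely, from 1.96 to 4.49 in Ctrl and from 2.42 to 5.78 in AggE.

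At 4 wks post-10-day no member was called, where 4.17% of all genes were. By unadjusted p 10 of 47 passed (21.3%, with 22.6% of all genes), 5 Gst genes higher (9.82% of all genes) and 5 members lower (12.8% of all genes). Groups overlapped for every member, where 1.77% of all genes did not overlap. Gstm6, a mu-class enzyme, ran from 0.45 through a median of 1.08 to 1.79 in the 6 Ctrl mice and from 1.07 through 1.93 to 2.32 in the 6 AggE mice. Its difference of 0.78 ± 0.26 was the nearest to a call (adjusted p = 0.0775). Gstm3 and Gstp1 differed by 0.81 ± 0.44 and 0.72 ± 0.41 (adjusted p = 0.305 and 0.327). Gstm7, Gstp3, Gstm4 and Gstt1 differed by 0.54, 0.48, 0.55 and 0.54 (adjusted p = 0.0899, 0.0993, 0.146 and 0.234). Without AggE mouse 1 the test called 6 members in all, Gstm6, Gstm7, Gstp3 and Gstm4 among them, and without Ctrl mouse 2 it called those 4. With slide as a fixed block the values of Gstm6, Gstm7 and Gstm4 shrank to 0.020, 0.012 and 0.039 (adjusted p = 0.989, 0.987 and 0.969), Gstp3 turned to -0.046, and Gstt1 read 0.17. That fit leans on AggE mouse 1, the only AggE mouse on a slide with Ctrl mice of this time. Its Gstm4 of 0.578 and Gstm6 of 1.07 lay apart from the other AggE mice, which began at 1.32 and 1.88.

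Lower in the rested AggE mice, though not called, stood 3 glucuronosyltransferases of the chromosome 5 cluster, while Ugt2a1 of that cluster read 0.42 higher. Ugt2b5 ran from 6.33 through 6.54 to 6.75 in Ctrl and from 4.14 through 5.51 to 6.60 in AggE, a tight group beside a wide one (log2 difference -1.07 ± 0.43, adjusted p = 0.15). Ugt2a3 ran from 5.54 through 5.86 to 6.08 in Ctrl and from 3.83 through 4.99 to 5.62 in AggE (-0.95 ± 0.38, adjusted p = 0.148). Ugt2b37 differed by -0.78 and the phenol sulfotransferase Sult1a1 by -0.70 (adjusted p = 0.176 and 0.239). Over the alternatives Ugt2b5 ran from -2.09 to -0.19 and Ugt2b37 from -1.49 to 0. Only 3 of 14 Ugt genes were higher in AggE (median -0.13) beside 16 of 21 Gst genes (median 0.10), and the Sult median was -0.01. These kept their sign under 26, 28 and 16 of 29 alternatives, and Ugt2a3 turned to 0.011 in the deposited series table. The reference was dim for these Ugt genes, well above background in Cy-3 on 11, 7 and 23 of 39 arrays for Ugt2b5, Ugt2a3 and Ugt2b37, and Sult1a1 differed by 0.13 when Cy-5 was taken alone. Among genes that serve conjugation, Slc35d1, a transporter of UDP-sugars, was called lower (-0.996 ± 0.25, adjusted p = 0.0269) and the histamine methyltransferase Hnmt higher (0.68 ± 0.19, adjusted p = 0.0441). Of the PPARα targets, Acot1 (0.86 ± 0.21) and Cyp4a10 (1.68 ± 0.32) were called higher (adjusted p = 0.0239 and 0.0075). From the marker lists, the pericentral Glul and the biliary Epcam were called lower, and the periportal Ass1 and the acute phase gene Serpina3n higher. The part of these in the members' values was not tested.

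The mice at 4 wks differed widely in 4 Gst genes. Ctrl mice 4, 5 and 6 and AggE mouse 1 shared a slide that held no other mouse, and on it Gstp1 ran from -0.58 to 1.34, while the 8 mice on other slides ran from 1.45 to 3.21. Gstm1 ran from -0.15 to 2.11 on that slide and from 3.03 to 3.75 elsewhere, and Gstm3 from -0.26 to 1.71 and from 1.91 to 3.69. Gstm2 overlapped, from -1.02 to 0.09 and from 0.05 to 0.86. Ctrl mouse 3, on another slide, was the lowest of the other 8 for all 4 genes, with 1.45 for Gstp1. The gap was wide for Gstm1 and narrow beside the ranges for Gstp1 and Gstm3. With Cy-5 taken alone Gstp1 overlapped, at log2 signals of 11.4 to 12.9 on the slide and 12.8 to 15.4 elsewhere. The alpha-globin gene Hba-a1 ran from 2.05 to 3.03 on that slide and from 2.85 to 4.68 elsewhere, and Alb from 5.76 to 7.08 and from 4.87 to 5.73. The part of the slide in these values was not tested, and without its 4 mice 0 members were called at 4 wks, as with them. With slide as a fixed block, where only AggE mouse 1 shared a slide with Ctrl mice of this time, 2 were.

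**Figure D2:**
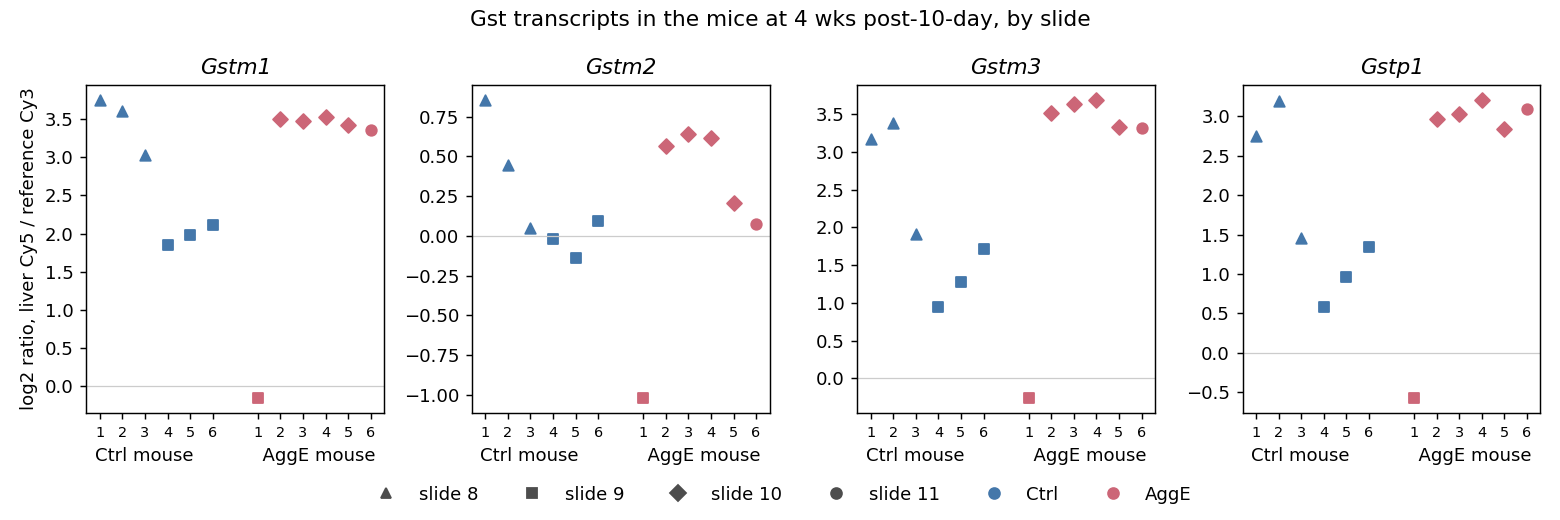
Log2 ratio of liver Cy-5 over reference Cy-3 of Gstm1, Gstm2, Gstm3 and Gstp1 in the 12 mice at 4 wks post-10-day. Each point is 1 mouse, numbered within Ctrl (blue) and AggE (red), and the symbol gives its slide. The 4 mice of slide 9 are the lowest for Gstm1, Gstm3 and Gstp1, with AggE mouse 1 at -0.15, -0.26 and -0.58.

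The differences between these changes were tested in the same fit. No member differed by adjusted p (limma) between the changes after 5 and 10 days at 24 hrs, between 24 hrs and 1.5 wks after 5 days, or between 24 hrs and 4 wks after 10 days, where 0.0353%, 0.094% and 0.0764% of all genes did. By unadjusted p, 2, 3 and 3 members passed (4.26%, 6.38% and 6.38%), beside 6.34%, 7.56% and 10% of all genes. The widest gaps were those of Sult5a1, whose change at 24 hrs post-5-day lay 1.25 ± 0.69 below that after 10 days and 1.47 ± 0.69 below that at 1.5 wks (adjusted p = 0.819 and 0.628), and of Gstm3, whose change at 24 hrs post-10-day lay 1.43 below that at 4 wks (adjusted p = 0.547). For Sult1e1 the change at 24 hrs post-5-day exceeded the 10-day one by 0.49 ± 0.20 (adjusted p = 0.601). A call at 24 hrs post-5-day alone is thus not shown to be particular to that time.

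More members were called between times than with exposure. The comparison of groups of 1 treatment at different rest times was added after the levels of each group had been seen. In Ctrl mice 19 of 47 members (40.4%) differed between 1.5 wks and 24 hrs after the 5-day regimen, 18 of them lower at 1.5 wks, where 7.09% of all genes were called lower, 6.72% higher and 13.8% either way. Of the 10265 genes well above background on all arrays of a group 11.6% were lower, beside 18 of 39 such members. Leaving out single mice gave 9 to 21 calls. Of the animals at 1.5 wks, omitting mouse 3 left 9, mouse 1 left 11 and mouse 4, whose title carries a 10, left 18. In AggE mice, other animals that share the normalization, the fit and 1 slide at 1.5 wks with the Ctrl mice, 17 of 47 were called and 15 were lower (10.3% of all genes lower, 13.2% higher and 23.5% either way). By family, 8 of 14 Ugt genes were lower in Ctrl (median log2 difference -1.40), 8 of 21 Gst (-0.31) and 2 of 12 Sult (-0.17). In AggE these were 5 of 14 (-0.85), 7 of 21 (-0.23) and 3 of 12 (-0.18). No difference between families was tested. With Cy-5 alone the Ctrl medians were -0.27 for Ugt, -0.60 for Gst and -0.10 for Sult, so that the order of Ugt and Gst turned. The Ugt median in AggE was -0.22 there, and in the deposited series table the Ugt medians were -0.86 and 0.05, so that in AggE the sign turned.

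Members called lower in both treatments numbered 10, which is 55.6% of those lower in Ctrl and 66.7% of those lower in AggE. Over all genes 817 were called lower in both, 67.7% of the 1206 lower in Ctrl and 46.6% of the 1753 lower in AggE. They were Ugt3a1, Ugt3a2, Ugt2b1, Ugt2b35, Gstm4, Gstm6, Gstt1, Gstt3, Gstz1 and Sult1d1. The plot of log2 ratios by mouse shows 8 of them.

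**Figure D3:**
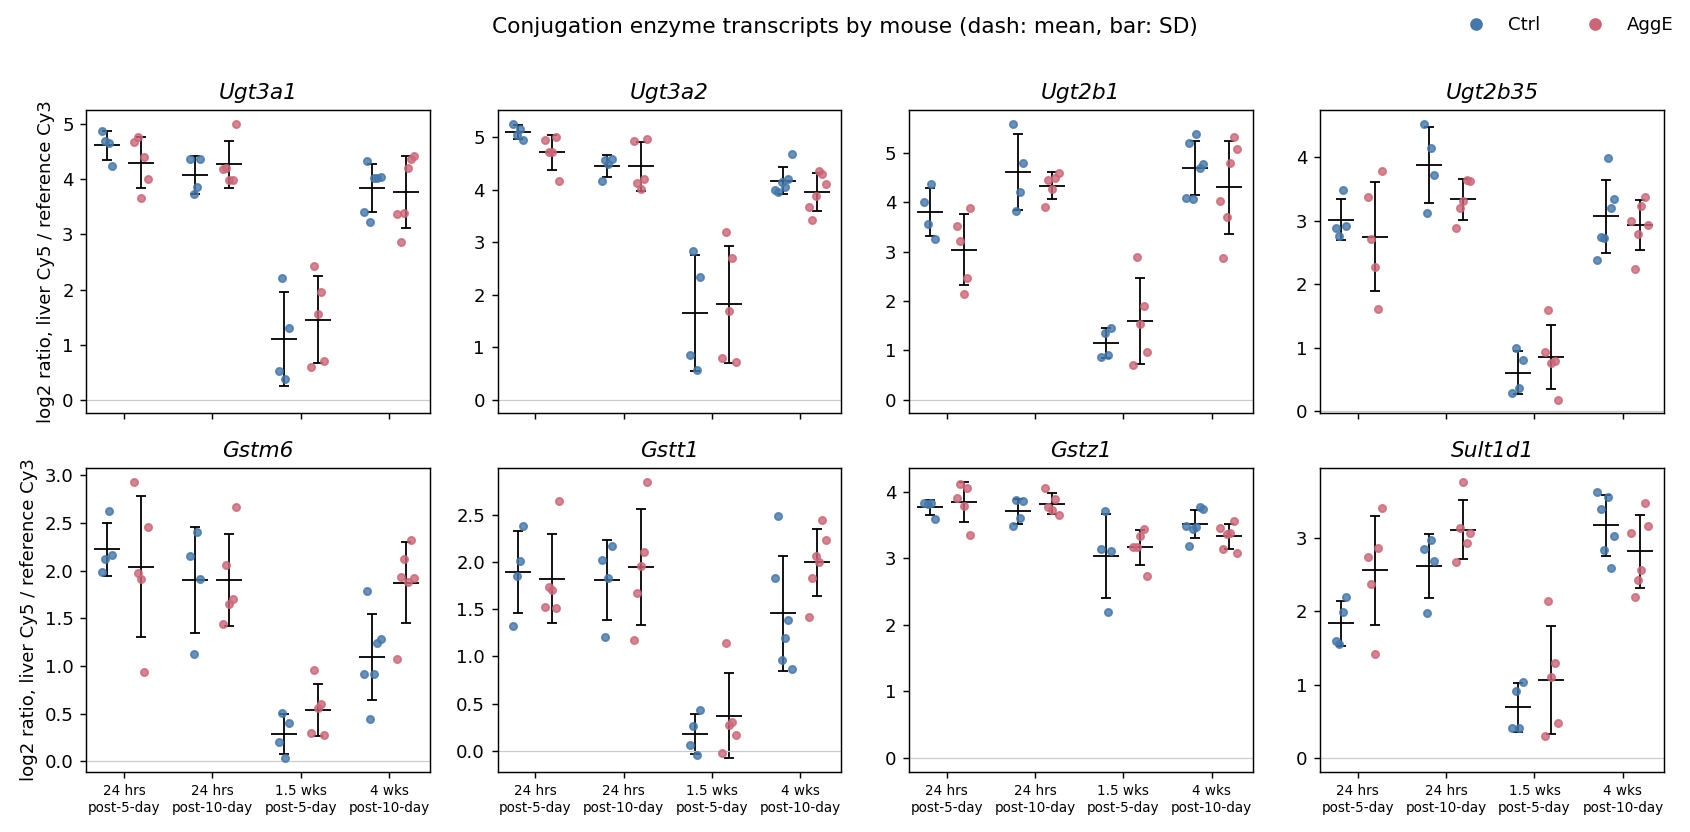
Log2 ratio of liver Cy-5 over reference Cy-3 of 8 members in all 39 mice. Points are mice, dashes group means and bars SD, with Ctrl in blue and AggE in red at each of the 4 times. For Ugt3a1 the mice at 1.5 wks post-5-day lie between 0.37 and 2.43 and all others between 2.86 and 5.01, while for Sult1d1 they reach 2.14, above the lowest AggE mouse at 24 hrs post-5-day at 1.41.

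In the main fit the deepest difference was in Ugt3a1 and Ugt3a2, which transfer N-acetylglucosamine or glucose in place of glucuronic acid. The rank depends on the processing, as Gstm4 reached -3.80 in Ctrl and -4.05 in AggE under alternatives. Ugt3a1 read 4.88, 4.70, 4.67 and 4.25 in Ctrl mice at 24 hrs and 0.52, 2.21, 0.37 and 1.31 at 1.5 wks. In AggE mice it read 4.68, 4.77, 3.67, 4.41 and 4.01 at 24 hrs and 0.60, 2.43, 1.56, 1.95 and 0.70 at 1.5 wks. No mouse of either treatment overlapped between the times. The difference was 11.49-fold in Ctrl (log2 -3.52 ± 0.38, adjusted p = 1.96e-07) and 7.26-fold in AggE (-2.86 ± 0.34, adjusted p = 4.79e-07), and with Cy-5 alone it was -2.06 and -1.67 on the log2 scale. From the processed signals it was -0.99 and -1.84, and the Ctrl call was lost (adjusted p = 0.326). At 24 hrs post-10-day and at 4 wks the gene lay between 2.86 and 5.01.

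Ugt3a2 read 5.26, 5.03, 5.16 and 4.94 in Ctrl mice at 24 hrs and 0.85, 2.83, 0.56 and 2.34 at 1.5 wks, a log2 difference of -3.45 ± 0.41 (adjusted p = 6.69e-07). In AggE mice it was -2.89 ± 0.36 (adjusted p = 1.14e-06). Its second, far dimmer probe did not follow, with -0.02 ± 0.25 in Ctrl and 0.23 ± 0.22 in AggE (adjusted p = 0.978 and 0.507). From the processed signals the Ctrl difference at the bright probe turned to 0.33. So the probes and the signals of this gene disagree, and Ugt3a1, close in sequence and next to it, was read by 1 probe.

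Ugt2b1, a steroid and drug glucuronosyltransferase, fell from 4.01, 3.57, 4.36 and 3.27 to 0.86, 1.35, 0.91 and 1.46 in Ctrl mice, 6.32-fold (log2 -2.66 ± 0.46, adjusted p = 0.000105). In AggE mice the difference was 2.72-fold (adjusted p = 0.00999), and 0.05 on the log2 scale in the series table. Ugt2b35 fell 5.30-fold in Ctrl and 3.73-fold in AggE (adjusted p = 1.42e-05 and 6.68e-05). Ugt2b5 (-2.29), Ugt2a3 (-1.88), Ugt2b37 (-1.41) and Ugt2b38 (-1.40) were called lower in Ctrl, the last pair turning to 0.46 and 0.12 from the processed signals, and in AggE they lay at -0.94, -1.05, -0.75 and -0.52 without passing the test. No Ugt1a gene was called: Ugt1a6b differed by -0.14 ± 0.27 in Ctrl and 0.22 ± 0.25 in AggE, and Ugt1a1, the bilirubin enzyme, by 0.44 ± 0.31 and 0.44 ± 0.28 (adjusted p = 0.849, 0.585, 0.472 and 0.287). Ugt1a9, dim on all these arrays, read -0.10 and -0.03.

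Among the transferases of glutathione, Gstm6 read 1.99, 2.12, 2.63 and 2.17 in Ctrl mice at 24 hrs and 0.21, 0.50, 0.04 and 0.40 at 1.5 wks (3.83-fold lower, adjusted p = 5.02e-05). In AggE mice it was 2.83-fold lower (adjusted p = 0.000251). The theta-class Gstt1, which acts on small halogenated molecules, was 3.28-fold lower in Ctrl and 2.73-fold lower in AggE (adjusted p = 0.000313 and 0.00046), and Gstt3 1.94-fold and 2.56-fold lower (adjusted p = 0.037 and 0.000567). Gstm4 was 2.68-fold and 1.72-fold lower, though well above background in 1 of 4 and 1 of 5 mice at 1.5 wks, and Gstt1 was so in 2 of 4 and 4 of 5. Gstz1, which also works in tyrosine breakdown as maleylacetoacetate isomerase, was lower by -0.73 and -0.67 on the log2 scale (adjusted p = 0.00956 and 0.00503). Gstm5 and Gstp3 were called lower in AggE (-0.53 and -0.51, adjusted p = 0.00171 and 0.0464) and Gsta2 in Ctrl (-1.24, adjusted p = 0.0326). Fits without 1 mouse kept these in 10 of 10, 3 of 10 and 4 of 8. Against the trend, Gstm2 was called higher at 1.5 wks in Ctrl (0.85 ± 0.27, adjusted p = 0.0348), and Gsta4, which detoxifies lipid aldehydes, in AggE (0.55 ± 0.19, adjusted p = 0.0357). These calls were kept in 2 of 8 and 4 of 10 fits without 1 mouse, and the Ctrl call of Gstt3 in 3 of 8. Gsto2 was called higher in AggE too (0.42 ± 0.10, adjusted p = 0.00181), from 0 of 5 mice above background at 24 hrs to 1 of 5. In the series table its log2 difference turned to -0.017.

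Of the sulfotransferases, Sult1d1 was 2.21-fold lower in Ctrl (adjusted p = 0.0275) and 2.82-fold lower in AggE (adjusted p = 0.00085). Sult5a1 was lower in Ctrl (-1.87 ± 0.52, adjusted p = 0.0128) and Sult1a1 in AggE (-1.22 ± 0.38, adjusted p = 0.0176), though Sult5a1 turned to 0.39 from the processed signals and Sult1a1 to 0.32 in the series table. Sult1e1, raised in the AggE mice at 24 hrs, was lower in the AggE mice at 1.5 wks by a log2 ratio difference of -0.67 ± 0.13 (adjusted p = 0.000443), and well above background in 0 of 5. On the Cy-5 part of the normalized signals, treated in the same way, it was 1.66-fold lower.

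**Figure D4:**
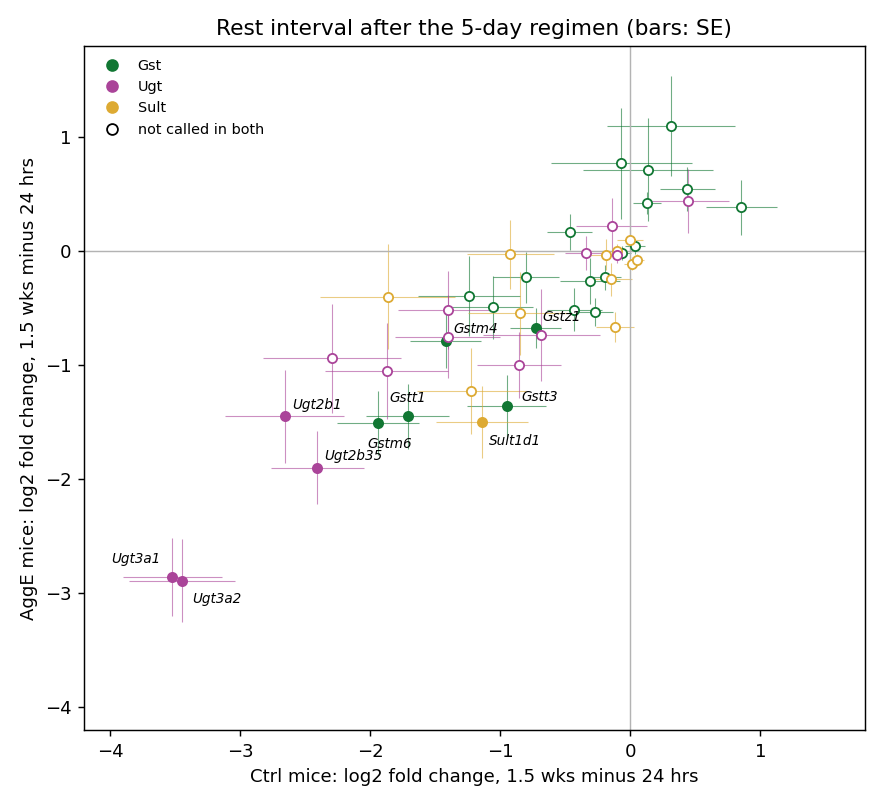
Log2 fold change from 24 hrs to 1.5 wks after the 5-day regimen in Ctrl mice (horizontal axis) and AggE mice (vertical axis). Each point is 1 of the 47 genes with SE bars, coloured by family and filled where called in both. Ugt3a1 and Ugt3a2 lie lowest on both axes, at -3.52 and -2.86 and at -3.45 and -2.89.

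Within slides there was a partial view: 3 of them held mice at 1.5 wks beside mice of another time, with 1 mouse on at least 1 side in each. On a slide with 3 AggE mice at 1.5 wks and 1 at 24 hrs post-5-day, 25 of 47 members were lower in all 3 (53.2%, with 38.6% of all genes). On a slide with 1 Ctrl mouse at 1.5 wks and 3 Ctrl mice at 4 wks, 24 of 47 were below all 3 (51.1%, with 28.4% of all genes). On a slide with 1 AggE mouse of each of those times, 35 of 47 were lower (74.5%, with 48.3% of all genes). The slides with mice at 4 wks differ in regimen as well, and these counts are a description. With slide as a fixed block the AggE level at 24 hrs rested on mouse 5 alone. The other mice of that group lay on a slide of their own, so the calls of that fit are not given. With slide as a random block the Ctrl comparison called 7, all lower. Without normalization between arrays the test called 10 in Ctrl, all lower, and 4 in AggE, 3 of them lower. The mice at 1.5 wks were older and were hybridized mostly on other slides. Their arrays had 18.6% to 40.9% (Ctrl) and 15.2% to 47.7% (AggE) of probes above background. These cannot be told apart from rest in either treatment. Only AggE mouse 5 at 24 hrs post-5-day shared a slide with mice at 1.5 wks of its own treatment.

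Genes of other lists moved between these times as well. Of 16 other conjugating transferases 7 were called lower in Ctrl and 6 in AggE, among them the glycine N-acyltransferase Glyat (-2.39 and -1.52) and the glycine methyltransferase Gnmt (-3.32 and -2.64). Of 16 genes of cofactor supply 4 and 5 were lower, and Cth, Cbs and Mat1a, which carry methionine sulfur towards cysteine for glutathione, were lower in both (Cth by -2.45 and -2.92, adjusted p = 8.86e-06 and 5.02e-08). Among the regulators, Hnf4a (-1.69 and -1.28) was called lower in both and Bach1, a repressor of NRF2 targets, higher in both (0.94 and 1.21). Of 11 CAR, PXR and PPARα targets 5 and 4 were called lower, Cyp3a11 (-2.34 and -1.59) and Cyp4a10 in both, while in AggE 7 of 11 lay higher, with a list median of 0.12. The 8 periportal markers had 4 lower in each treatment and ran as a mean log2 ratio from 3.75 to 3.93 in Ctrl mice at 24 hrs and from 2.03 to 3.12 at 1.5 wks, and in AggE mice from 3.76 to 4.15 and from 2.76 to 3.42. The 9 pericentral markers had 4 and 3 lower and ran from 2.86 to 3.03 and from 1.54 to 2.61 in Ctrl, and overlapped in AggE, from 2.40 to 2.88 and from 1.74 to 2.59. The 6 general hepatocyte markers ran the other way in Ctrl, from 5.59 to 5.78 and from 5.83 to 6.60, and overlapped in AggE, from 4.96 to 6.18 and from 5.76 to 6.49, with Ahsg, Apoa1 and Apoc3 called higher and Ttr lower. Kupffer cell and leukocyte markers (13) ran from 0.73 to 0.98 and from 0.19 to 0.66 in Ctrl, and overlapped in AggE, from 0.77 to 1.05 and from 0.26 to 0.86. Of these Cd5l and Clec4f were called lower in both treatments, and in AggE Marco and Vsig4 lower and S100a8 higher. In AggE mice 10 of 14 acute phase genes were lower at 1.5 wks, and in Ctrl 3 of 14, with the metallothioneins Mt1 and Mt2 called higher. The part of these in the members' values was not tested.

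Probes of 1 gene did not always read alike. Of the 3 probes of Ugt2a1, known from olfactory tissue, the brighter pair were lower at 1.5 wks in AggE (-0.997 and -1.08, adjusted p = 0.0112 and 0.00429), in Ctrl they read -0.86 and -1.08 (adjusted p = 0.0825 and 0.0148), and the third, dim probe read 0.10 and 0.14 in Ctrl and AggE. At 4 wks only that dim probe passed the test for exposure (0.34, adjusted p = 0.0304), while the brightest read 0.42 (adjusted p = 0.383). The second probe of Gsta3 was lower at 1.5 wks in Ctrl (-1.59, adjusted p = 0.0299) where the brightest missed the test (-0.47, adjusted p = 0.0842), and for exposure 24 hrs after 5 days the pair read 0.34 and -0.37. The second probe of Ugt2b37 was called at 1.5 wks in AggE (-1.77, adjusted p = 0.000405), where the brightest was not (-0.75, adjusted p = 0.145). For exposure at 4 wks, Gstm1 read 1.69 ± 0.52 at its second probe (adjusted p = 0.0598) and 0.13 at the brightest (adjusted p = 0.902). The second probe of Sult1b1, a thyroid hormone sulfotransferase, turned sign for exposure at 4 wks (0.29 against -0.04).

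Members whose log2 differences with exposure were small in all 4 comparisons included Gsto1 (0.05 to 0.11), Ugt2b34 (-0.08 to -0.01), Sult1c1 (-0.09 to 0.22) and Sult1c2 (-0.22 to -0.03). The theta-class Gstt2 and the alpha-class Gsta1 did not pass the test with exposure and were lower from 24 hrs to 1.5 wks in Ctrl (-0.80 and -1.06, adjusted p = 0.0329 and 0.0198), calls kept in 2 and 4 of 8 fits without 1 mouse.

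At 4 wks against 24 hrs after the 10-day regimen fewer members differed: 2 of 47 in Ctrl (4.26%) and 5 of 47 in AggE (10.6%), where 10.4% and 14.5% of all genes were called. Gstm3 and Gstm4 were lower in Ctrl (-1.55 ± 0.50 and -0.81 ± 0.25, adjusted p = 0.0438 and 0.0351), and these calls were kept in 2 and 4 of 10 fits without 1 mouse. The second probes of Gstp1 (-2.10, adjusted p = 0.0376) and Gstm1 (-2.18, adjusted p = 0.014) were called lower in Ctrl where the brightest were not (-0.98 and -0.70), and the dim probe of Ugt2a1 was called higher in AggE (0.34, adjusted p = 0.0133). The second probe of Gsta3 read 0.81 in AggE (adjusted p = 0.219), against the sign of the brightest. Gsta3 (-0.47), Gstz1 (-0.49) and Sult1a1 (-1.16) were called lower in AggE and Sult4a1 (0.30) and Gstt4 (0.20), the latter above background in no mouse, higher. From the processed signals Gsta3, Gstz1, Sult1a1 and Gstt4 turned to 0.11, 0.20, 1.12 and -0.021, and no member was called in both treatments. All arrays at 24 hrs post-10-day were scanned on 1 day and all at 4 wks on another, with no slide in common, so scan and slide cannot be told apart from rest. With scan day as a block, estimated from other groups, 1 member was called in Ctrl and 0 in AggE, and with slide as a random block 0 in both. Without the 4 mice of the shared slide, 1 member was called in Ctrl and 3 in AggE.

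Mice of 1 group differed most in Gstm3, Ugt2b5, Sult5a1, Gstp1 and Gstm1, with SDs within groups of 0.80, 0.79, 0.76, 0.74 and 0.73 on the log2 scale. The members moved together in blocks when each mouse was taken as a deviation from its group mean, as a description over 39 mice that share slides and normalization. Ugt2a3 and Ugt2b5 had r = 0.92, and 0.92 again over the 27 mice that leave out the 4 wk groups. Ugt2b37 and Ugt2b5 had 0.91, and 0.91 without those groups, and Ugt3a1 and Ugt3a2 0.78 and 0.85. Gstm4 went with Gstm7 (0.85 and 0.88) and Gstt1 (0.84 and 0.83), and Sult1b1 with Sult1d1 (0.77 and 0.78). Gstm3 and Gstp1 had 0.95, which was 0.63 without the mice at 4 wks, and Gstm1 and Gstp1 0.94 and 0.61. Over the pairs of the 39 members well above background on all arrays of a group, the median r was 0.43 among Ugt genes, 0.21 among Gst, 0.13 among Sult and 0.11 between families. Without the mice at 4 wks these were 0.47, -0.02, 0.18 and 0.19, so that the Gst and Sult medians no longer exceeded that between families.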

How the data were processed

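Liver RNA was hybridized on 39 dual-dye Agilent arrays, Cy-5 for liver and Cy-3 for the common reference. The deposited scanner files hold spot intensity as the authors extracted it, with Feature Extraction 11.5.1.1 per the file headers and the submitters' processing notes, while the study's methods name an earlier version; their deposited series table holds log10 ratios and was used as an alternative. Groups follow the source field of the labels.

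Median intensities were background-corrected (normexp, offset 50), loess-normalized within arrays and quantile-normalized between arrays in limma 3.58.1 (R 4.3.3), and spots of a probe were averaged. Log2 ratios, computed here from the deposited intensities, of 25903 RefSeq probes entered 1 limma fit of 8 group means. Calls needed a p of at most 0.05 after Benjamini-Hochberg adjustment over all probes, and counts use the brightest probe of each of 17016 genes. Members named with values were drawn from those called, those the study names and those whose probes disagree. They were also drawn from the 3 most raised and 3 most lowered per family and comparison, among members well above background on all arrays of a group. Not all of these are printed, and others were chosen after their values were seen. Members and lists were chosen with earlier results of these data known, and the comparisons between rest times were added after values had been seen. Labels do not tie the mice to cages or extractions, so p-values measure the spread between these samples.

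On simulated data, 200 changed probes of 25903 were recovered at 91.5% for a log2 change of 1 and at 63% for 0.5 at 24 hrs post-5-day. The changed probes were drawn from all probes, with independent noise and no slide effect. Recovery was not simulated for the members, whose median SDs within groups were 0.382 (Gst), 0.557 (Ugt) and 0.229 (Sult). No 2 arrays were identical. Alternatives were other background corrections, normalizations, probe choices, blocks and single mice left out. Of 69 symbols of these families in the RefSeq table, the 47 with a probe were analysed.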

Additional observations from a re-analysis of the deposited data

Results flagged for a closer look

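Within-group values of 16 named members were searched for a mouse that stood apart, by Dixon's gap criterion, over 128 groups of 4 to 6 mice. Chance marks about 1 group in 20, or 6.4, where groups are unselected and independent. Here the Gst genes shown by slide were included after their values were seen, and members vary together. So the count is no test of an excess. The criterion marked 14, and the explanation of none was tested. AggE mouse 1 at 4 wks post-10-day gave 6 of them as the lowest of its group, with log2 ratios of -0.15 (-0.153) for Gstm1, -1.02 for Gstm2, -0.26 (-0.262) for Gstm3, 0.578 for Gstm4, 1.07 for Gstm6 and -0.577 for Gstp1, while the other 5 mice ran from 3.35 to 3.52 for Gstm1 and from 2.84 to 3.21 for Gstp1. Among Ctrl mice, the lowest value stood apart for Gstm2 in mouse 1 (0.485) and Gstz1 in mouse 4 (3.59) at 24 hrs post-5-day, and for Gstp1 in mouse 4 at 1.5 wks (2.62). The highest value stood apart for Gstt1 in AggE mouse 5 at 24 hrs post-5-day (2.64) and AggE mouse 2 at 1.5 wks (1.14), for Ugt3a1 in AggE mouse 5 at 24 hrs post-10-day (5.01), and at 4 wks for Sult1e1 in Ctrl mouse 4 (0.9, the others from 0.0245 to 0.134) and Ugt3a2 in Ctrl mouse 6 (4.68).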

How the results depend on the processing

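Over the alternatives tried, 1530 of 1911 single-gene values kept direction and side of the threshold, 312 lost a call, 31 gained one and 38 turned sign; the causes were not tested. Counts of members called at 24 hrs post-10-day and 1.5 wks were 0 throughout. At 24 hrs post-5-day (1) the count was 0 without normalization between arrays, with Aquantile, from the processed signals, in the series table, with slide as a random block, with only the compared groups and with only bright probes, 2 over all non-control probes or the mean of a gene's probes, 3 with no background correction, 4 with Cy-5 alone and 5 with array weights. At 4 wks (0) it was 2 without normalization between arrays, with Aquantile or with slide as a fixed block and 7 with array weights, which also gave 2 for the difference between 24 hrs and 4 wks. From 24 hrs to 1.5 wks it was 10 in Ctrl (19) and 4 in AggE (17) without normalization between arrays or with Aquantile, 10 and 11 with a normexp offset of 0, 7 in Ctrl with slide as a random block and 10 in AggE in the series table. From 24 hrs to 4 wks in Ctrl (2) it was 0 without normalization between arrays, with Aquantile or a random slide block, 1 over all non-control probes, with the compared groups, a scan day block or without the shared slide's 4 mice, 4 with bright probes, 5 with offset 0, 6 with no background correction, 7 with array weights and 9 with Cy-5 alone. In AggE (5) it was 0 without normalization between arrays, with Aquantile, offset 0, processed signals, a scan day block or a random slide block, 1 with Cy-5 alone, no background correction or the series table, 3 with the mean of probes, the compared groups or without the 4 mice, and 8 with array weights.

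Leaving out single mice moved these counts between 0 and 2 at 24 hrs post-5-day, 0 and 6 at 4 wks, 0 and 1 for the difference between 24 hrs and 4 wks, 9 and 21 (Ctrl) and 14 and 20 (AggE) from 24 hrs to 1.5 wks, and 0 and 5 (Ctrl) and 1 and 5 (AggE) from 24 hrs to 4 wks. With the replicate number as a block the count was 1 at 24 hrs post-5-day, 19 and 16 from 24 hrs to 1.5 wks, and 1 (Ctrl) and 4 (AggE) from 24 hrs to 4 wks; same-numbered mice correlated at -0.448 to 0.502, so the numbers were not taken to pair them.

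The signs that turned were these. From the processed signals at 24 hrs post-5-day, Gstm4 0.64, Sult2b1 -1.07, Sult5a1 1.43 and Gsta2 0.57; at 4 wks, Sult1a1 0.37 and Gsta3 0.0019; in the differences, Sult2b1 -0.82 and Sult5a1 1.45; from 24 hrs to 1.5 wks in Ctrl, Ugt2b37 0.46, Ugt3a2 0.33, Sult5a1 0.39 and Ugt2b38 0.12; from 24 hrs to 4 wks in AggE, Sult1a1 1.12, Gsta3 0.11, Gstz1 0.20 and Gstt4 -0.021. In the series table, Sult2b1 -0.046 and Sult1d1 -0.70 at 24 hrs post-5-day, Ugt2a3 0.011 and Sult1a1 0.39 at 4 wks, Ugt2b37 0.12 in Ctrl and Ugt2b1 0.053, Sult1a1 0.32, Gsto2 -0.017 and Ugt2a1 0.00066 in AggE from 24 hrs to 1.5 wks, and Sult1a1 0.82 and Gstz1 0.048 in AggE from 24 hrs to 4 wks. That table moved the median of all genes by -0.17 (Ctrl) and -0.19 (AggE) from 24 hrs to 1.5 wks. Sult1d1 was -0.030 at 24 hrs post-5-day without normalization between arrays or with Aquantile. With offset 0, Ugt2b37 was 0.015 (Ctrl) and Sult1a1 0.18 (AggE) from 24 hrs to 1.5 wks. Sult1a1 was 0.13 with Cy-5 alone and 0.044 with no background correction at 4 wks, Gsta3 was 0.015 there with no background correction, and from 24 hrs to 4 wks in AggE it was 0.015 so and 0.17 as the mean of probes. Gstp3 was -0.046 at 4 wks with slide as a fixed block. Ugt8a at 24 hrs post-5-day ranged from -0.51 to 0.0089 as single mice were left out, turning sign without Ctrl mouse 3, and had no value in the series table. The number of arrays, 4 to 6 a group, and signals near background for 8 members limit the precision.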
